A study of Mus musculus with 6 samples.

Results

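The genes examined were 8 caspases and effectors of necroptosis or pyroptosis: *Casp1*, *Casp4*, *Casp8*, *Casp9*, *Gsdmd*, *Ripk1*, *Ripk3* and *Mlkl*. They were chosen by name, as the non-control probes of the array that carry these symbols, and 12 probes did so, out of 32074 probes of 20778 genes that were tested. Signal was measured in LSK cells, which lack lineage markers and carry Sca-1 and c-Kit, a bone marrow fraction that holds haematopoietic stem cells and early progenitors, on 1-colour Agilent microarrays with 60-mer probes. Control cells came from Atg5w/w;VaviCre+ mice and autophagy-deficient cells from Atg5f/f;VaviCre+ mice (called Atg5f/f;Vav), with 3 arrays each. All mice were on the C57BL/6 strain and were taken at postnatal day 6 to 8. Mice of both groups carry Vav-iCre, which is active in the blood lineage from fetal life, so neither group is free of the recombinase and the deletion is not restricted to LSK cells. Neither the labels nor the methods say whether a sample is 1 mouse or a pool, so n and SD refer to arrays and the p-values measure the spread between these arrays, which may be technical.

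Caspases are cysteine proteases that start or carry out cell death. *Casp1*, activated in inflammasomes, and *Casp4*, the mouse caspase-11 that senses bacterial lipopolysaccharide in the cytosol, cut gasdermin D (*Gsdmd*), whose freed N-terminal part opens pores in the plasma membrane, a lytic death called pyroptosis. *Casp8* is the initiator caspase of death receptors. When it is not active, the kinase encoded by *Ripk1* can pass the signal to that of *Ripk3*, which phosphorylates the pseudokinase encoded by *Mlkl*, the protein that breaks the membrane in necroptosis. *Casp9* is the initiator caspase of the mitochondrial pathway, activated on the apoptosome. These enzymes are mostly controlled after translation, by dimerisation, cleavage and phosphorylation, which an RNA array does not measure.

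The probes that carry the main results are identified here by the first 30 of their 60 bases, 5′ to 3′, as the array files give them, with the base of the transcript at which the probe starts. They are shown for the 2 genes that passed the test, and for *Ripk1* and *Gsdmd*, whose probes gave different changes.
Casp1, base 1437: ctatgctgagaatcgtgccaataagaagcc
Mlkl, base 1445: cggttgaagaatccacggacaagaaggtgt
Ripk1, base 4285: tcagacctgagtgtcattgtccacatcatg
Ripk1, base 2607: ttgagcatccaatgctgtactgtcacctta
Ripk1, base 1956 of an Ensembl transcript: tttctctccatcctgtcttctcttaggttc
Gsdmd, base 1477: tgctagaagaatgtggcctaaggctgcagg
Gsdmd, base 701: tacgctgcctggagctttatgcttgaaggg
None of the 12 probes shared a run of 20 bases with a probe of another gene on the array. On the mouse genome build mm9 the *Casp1* probe lies at chr9:5307206-5307265 and that of *Mlkl* at chr8:113835897-113835956 on the minus strand. The brighter *Gsdmd* probe lies at chr15:75697536-75697595, and the dimmer probe at chr15:75695520-75695884, a stretch longer than the probe, so that it crosses an intron. The *Ripk1* probes lie at chr13:34126830-34126889, chr13:34125152-34125211 and chr13:34106391-34106450. Whether a probe within a single exon lies in coding sequence or in a UTR was not analysed here.

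The values below are log2 signals relative to the 75th percentile of each array, which is 0 on this scale. Each array's 75th percentile had an intensity of 620 to 881, and 53.6% to 59.9% of its spots were well above background. Of the probes tested, 5540 were higher and 5484 lower in the Atg5f/f;Vav arrays at an adjusted p of 0.05 in limma, so that changes were frequent throughout the transcriptome. When the 75th percentile was taken over the probes above background on all 6 arrays, 3369 were higher and 10089 lower, and the median log2 fold change over genes moved from -0.03 to -0.24. Changes of the size of that shift therefore depend on the scaling. The single *Atg5* probe starts at base 2251 of the transcript, near its 3′ end and outside the floxed exon, so its 1.45-fold higher signal in Atg5f/f;Vav (adjusted p = 0.0209 in limma) does not check the deletion. The 3 control arrays occupied the first row of the slide and the 3 Atg5f/f;Vav arrays the second, so the genotypes and the slide rows cannot be told apart. The LSK markers *Kit*, *Ly6a* (Sca-1), *Cd34*, *Flt3*, *Cd48* and *Slamf1* were well above background on all 6 arrays, but their levels were not all alike. *Ly6a*, which encodes a marker of the sort, was 2.97-fold higher in Atg5f/f;Vav (adjusted p = 0.00623 in limma), whereas *Kit* and *Flt3* were 0.77 and 0.55 times the control with no overlap between the groups (adjusted p = 0.0563 and 0.0675). The part of these marker differences in the results below was not tested.

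Both *Casp1* and *Mlkl* rose in Atg5f/f;Vav LSK cells, 2.01-fold and 1.74-fold, while the other 6 genes did not pass the test. The 2 of 8 genes called higher compare with 18.7% of all genes tested that were called higher, and none of the 8 was called lower in limma, against 15.3% of all genes. At an unadjusted p under 0.05 in limma 2 of the 8 were higher and none lower, beside 15506 of 32074 probes that passed in either direction. All 3 Atg5f/f;Vav arrays lay above all 3 control arrays for 4 of the 8 genes (*Casp1*, *Gsdmd*, *Ripk3* and *Mlkl*), a pattern found in 29.6% of all genes, and the reverse pattern, found in 26.3%, occurred in none of the 8. The log2 fold change was above 0 for each of the 8, with a median of 0.24 against -0.03 over all genes, but it turned below 0 for *Casp9* and *Ripk1* with the other 75th percentile, for *Casp9* and *Ripk3* with quantile normalization and for *Casp9* with normexp background correction. All 12 probes were well above background on all 6 arrays. In bulk samples such as these, fewer cells of a type and less RNA per cell cannot be told apart.

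**Figure D1:**
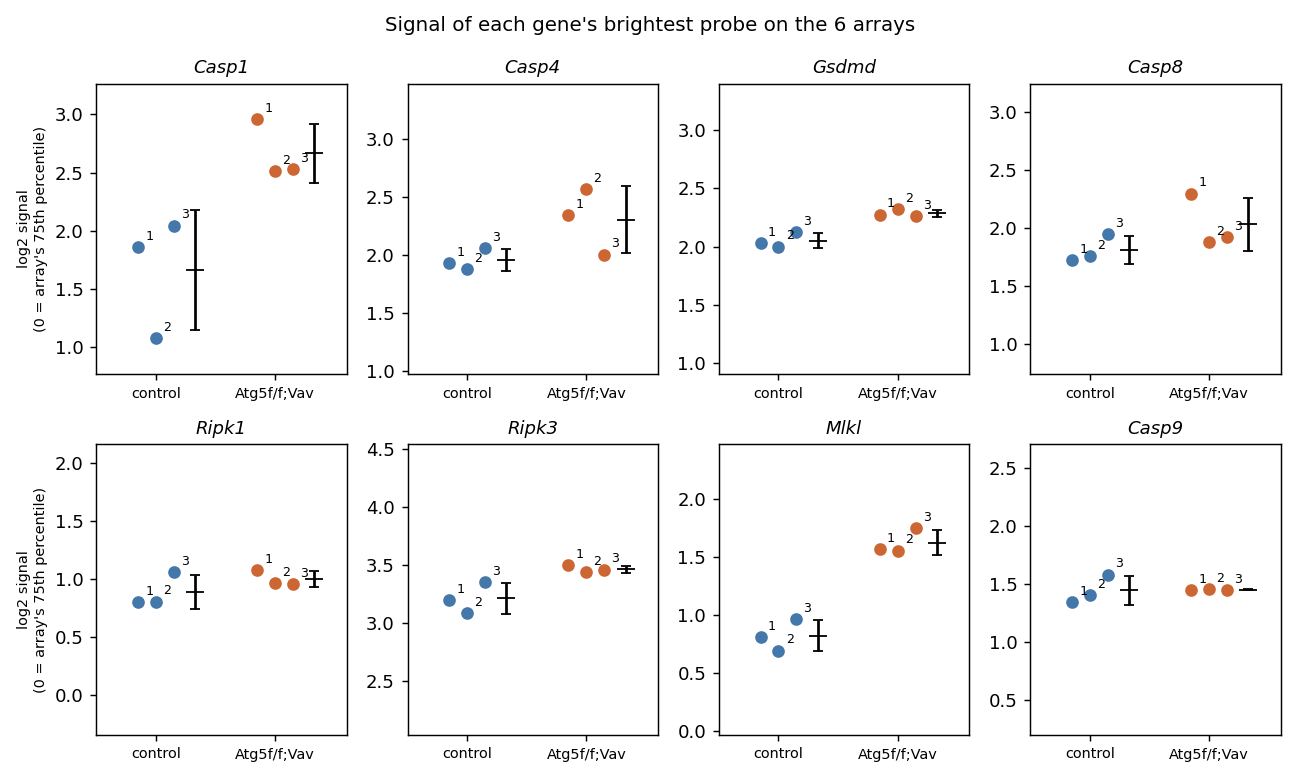
Log2 signal of the brightest probe of each gene (y axis, 0 is the array's 75th percentile, every panel spans the same range) on the 3 control and 3 Atg5f/f;Vav arrays, numbered by replicate, with mean ± SD in black. Casp1 and Mlkl are separated most between the groups, while the groups overlap for Casp4, Casp8, Ripk1 and Casp9.

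In the pyroptosis arm, *Casp1* had a log2 signal of 1.86, 1.07 and 2.04 in control and of 2.96, 2.51 and 2.53 in Atg5f/f;Vav. Control replicate 2 was the lowest of the 6 arrays, and the groups did not overlap. The mean rose from 1.66 ± 0.52 (SD, n = 3) to 2.67 ± 0.25 (SD, n = 3), a log2 fold change of 1.01 with a standard error of 0.27 and an adjusted p of 0.0307 in limma. Without control replicate 2 the log2 fold change was 0.72 with an adjusted p of 0.0754, so the call rested in part on that array. It was also lost without control replicate 1 (adjusted p = 0.0748), Atg5f/f;Vav replicate 1 (0.0667) or Atg5f/f;Vav replicate 2 (0.0532), although the signal stayed higher in each case. With every array kept, the call of *Casp1* was lost with quantile normalization (log2 fold change 0.82, adjusted p = 0.0661 in limma). It was lost too without a filter on dim probes (adjusted p = 0.0709), and it passed only narrowly with the other 75th percentile (0.04996).

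*Casp4* is the chromosomal neighbour of *Casp1*, and *Casp12* follows it. Its signal was 1.93, 1.88 and 2.06 in control and 2.34, 2.57 and 2.003 in Atg5f/f;Vav. The third Atg5f/f;Vav array fell among the controls, and the log2 fold change of 0.35 (95% interval -0.04 to 0.74, adjusted p = 0.132 in limma) did not pass the test. Without that array the log2 fold change was 0.50 with an adjusted p of 0.0316. *Casp12* gave a log2 fold change of 0.46 with an adjusted p of 0.326, so of these 3 adjacent genes *Casp1* alone passed the test.

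*Gsdmd*, the pore-forming substrate of both proteases, was measured by 2 probes. The brighter probe gave 2.03, 2.0002 and 2.13 in control and 2.27, 2.32 and 2.26 in Atg5f/f;Vav, with no overlap but a log2 fold change of only 0.23 (SE 0.10, adjusted p = 0.108 in limma). The dimmer, intron-crossing probe gave -1.25, -1.48 and -1.09 in control and -0.72, -0.86 and -0.95 in Atg5f/f;Vav. Its log2 fold change was 0.43 with a standard error of 0.14, and its adjusted p of 0.05002 lay just above the threshold. Both probes were thus higher on every Atg5f/f;Vav array under this scaling, and neither passed the test. The log2 fold change of the brighter probe was 0.04 with quantile normalization (adjusted p = 0.751 in limma). With the other 75th percentile it was 0.03 (adjusted p = 0.811).

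In the necroptosis arm, *Mlkl* had a log2 signal of 0.81, 0.69 and 0.96 in control and of 1.57, 1.55 and 1.75 in Atg5f/f;Vav. The gap between the groups exceeded the spread within each. The mean rose from 0.82 ± 0.14 (SD, n = 3) to 1.62 ± 0.11 (SD, n = 3), a log2 fold change of 0.80 with a standard error of 0.12 and an adjusted p of 0.0145 in limma. The adjusted p was 0.0660 without control replicate 1 and 0.0689 without control replicate 2, with log2 fold changes of 0.80 and 0.74. Leaving out either of these arrays reduced the calls over all probes from 11024 to 330 and 251.

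*Ripk3*, the kinase that activates the product of *Mlkl*, changed far less. Its signal was 3.20, 3.09 and 3.35 in control and 3.50, 3.44 and 3.46 in Atg5f/f;Vav. The groups did not overlap, and the log2 fold change was 0.25 (95% interval -0.02 to 0.52, adjusted p = 0.119 in limma), close to the shift that the choice of scaling makes. *Casp8* gave 1.72, 1.76 and 1.95 in control and 2.30, 1.88 and 1.92 in Atg5f/f;Vav. Only the first Atg5f/f;Vav array stood above the controls, and the log2 fold change of 0.22 had a 95% interval of -0.13 to 0.58 (adjusted p = 0.270 in limma). That log2 fold change was 0.05 with quantile normalization and 0.02 with the other 75th percentile.

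*Ripk1* could not be summarised by a single value, because its 3 probes differed in direction. The brightest, at base 4285, gave 0.80, 0.81 and 1.06 in control and 1.08, 0.97 and 0.96 in Atg5f/f;Vav, overlapping groups with a log2 fold change of 0.11 (adjusted p = 0.487 in limma). The probe at base 2607 of the same RefSeq transcript gave -0.89, -1.18 and -0.69 in control and -0.37, -0.40 and -0.25 in Atg5f/f;Vav. It was called higher, by a log2 fold change of 0.58 with a standard error of 0.15 and an adjusted p of 0.0283 in limma. That call was lost without control replicate 1 (adjusted p = 0.0887), control replicate 2 (0.0896), Atg5f/f;Vav replicate 2 (0.0569) or Atg5f/f;Vav replicate 3 (0.0526).
The third probe, designed on an Ensembl transcript and placed upstream of the other two, gave -2.24, -2.07 and -2.17 in control and -2.91, -2.40 and -2.42 in Atg5f/f;Vav. Here every Atg5f/f;Vav array was lower than every control array, but the log2 fold change of -0.41 (adjusted p = 0.0859 in limma) did not pass the test. The part of transcript isoforms in this difference was not tested.

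*Casp9* had nearly equal means in the groups. Its brighter probe gave 1.35, 1.41 and 1.58 in control and 1.45, 1.45 and 1.45 in Atg5f/f;Vav. The log2 fold change was 0.01 with a 95% interval of -0.25 to 0.27 (adjusted p = 0.967 in limma), and the second, dimmer and intron-crossing probe likewise gave 0.01 with an interval of -0.34 to 0.37. These intervals leave room for changes in either direction of the size seen for *Casp8* or *Ripk3*. By an exact 2-sided permutation test over the 6 arrays, p was 0.1 for *Casp1*, *Gsdmd*, *Ripk3* and *Mlkl*, the smallest that 3 arrays against 3 can give, 0.2 for *Casp4*, 0.3 for *Casp8* and *Ripk1*, and 1 for *Casp9*.

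**Figure D2:**
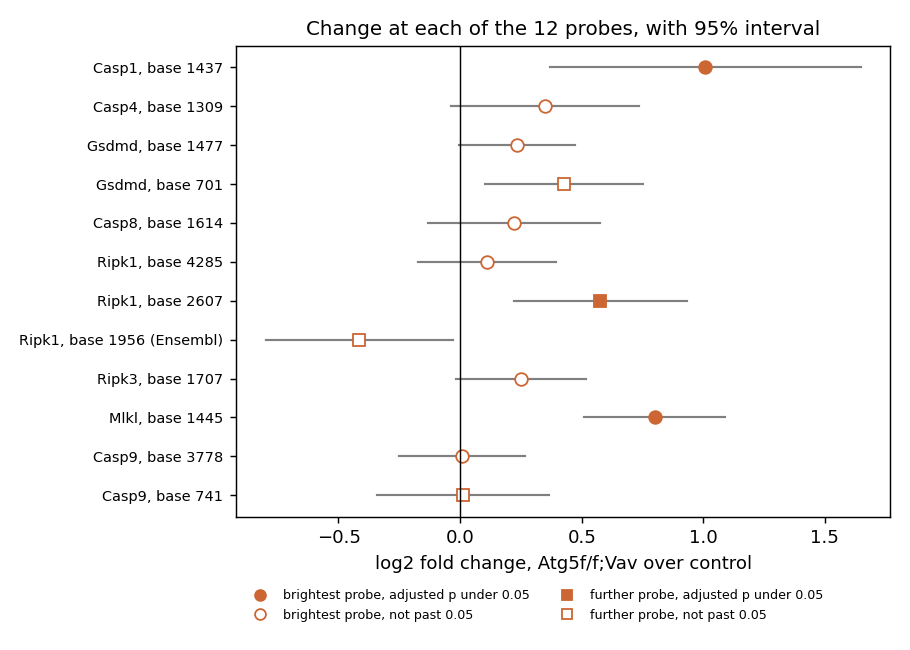
Log2 fold change of Atg5f/f;Vav over control (x axis) at each of the 12 probes, with its unadjusted 95% interval as a line, labelled by gene and by the transcript base at which the probe starts. Casp1, Mlkl and the Ripk1 probe at base 2607 are filled (adjusted p under 0.05), and the Ripk1 probe on the Ensembl transcript is on the other side of 0.

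Because small changes depended on the scaling, 4 pairs of functionally linked genes were also compared within each array. A single factor per array cancels in such a ratio, whereas quantile normalization and normexp background correction can still alter it. The pairs were chosen after the values were seen. The log2 ratio of *Mlkl* to *Ripk3* signal was -2.39, -2.39 and -2.39 in control and -1.93, -1.88 and -1.71 in Atg5f/f;Vav. The ratio was nearly constant among controls and was 0.55 higher in Atg5f/f;Vav, with no overlap (exact permutation p = 0.1, adjusted over the 4 pairs 0.133). The ratio of *Casp1* to *Gsdmd* was higher by 0.77 and that of *Casp8* to *Casp9* by 0.22, both without overlap between the groups (exact permutation p = 0.1, adjusted 0.133, for each). The ratio of *Casp1* to *Casp4* was higher by 0.66, with overlapping groups (exact permutation p = 0.2, adjusted 0.2). An exact p of 0.1 is the smallest possible for each pair, so no support is drawn from these tests. The changes of the ratios restate the log2 fold changes of the paired genes given above. Only the change of a ratio between groups can be read here, since the brightness of different probes is not comparable.

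Genes upstream and downstream of the 8 were described from lists of related genes, chosen with earlier results of these data known. Of all 65 genes tested in the 9 lists, 33 were called higher and 2 lower. The interferon-induced genes made up 16 of the 33, and without them 17 of 49 genes (34.7%) were called higher and 2 (4.08%) lower, beside 18.7% and 15.3% of all genes. The counts called higher include *Gsdma*, and the 33 also *Cxcl9*, which both passed the background filter only through the Atg5f/f;Vav arrays. Of the 35 genes called, 14 remained called without control replicate 1 and 14 without control replicate 2. Among the other caspases, *Casp14*, the caspase of cornifying skin, was 0.69 times the control (adjusted p = 0.0416), at a dim signal near -3, and this call was lost with normexp (adjusted p = 0.0949), quantile normalization (0.232), an intensity trend (0.0562) and the replicate block (0.0534). *Casp2*, *Casp6* and *Casp12* did not pass the test, with log2 fold changes of -0.10 to 0.46.

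Inflammasome sensors and their adaptor, which assemble the platform that activates caspase-1, had 5 of 11 tested genes called higher and none lower, with a median log2 fold change of 0.54. *Pycard*, the adaptor ASC that links sensors to caspase-1, had signals of 2.88, 2.73 and 2.99 in control and 3.45, 3.39 and 3.37 in Atg5f/f;Vav, 1.45-fold higher without overlap (adjusted p = 0.0183 in limma), although with quantile normalization the log2 fold change of 0.54 became 0.27 and the call was lost (adjusted p = 0.0884). *Nlrp1a*, a sensor known from haematopoietic progenitors, was called 1.59-fold higher (adjusted p = 0.0402), but its log2 fold change of 0.67 became 0.33 with quantile normalization (adjusted p = 0.173) and 0.46 with the other 75th percentile (0.0705); these 2 genes were named after their values were seen. *Naip6* and *Naip2*, sensors of bacterial proteins that act through NLRC4, rose 1.81-fold (adjusted p = 0.0168) and 1.79-fold (adjusted p = 0.0271), and *Naip1* was called higher with a log2 fold change of 1.22 (adjusted p = 0.0149). Only 1 of 3 control arrays measured *Naip1* above background, and its log2 fold change was 0.37 with normexp background correction, so the size of its change is uncertain. *Naip5*, of the same family, gave a log2 fold change of -0.11 (adjusted p = 0.458). The *Naip* genes are close paralogs, and cross-hybridisation between them was not tested. *Nlrp3* was not well above background on any array. Of the 11 tested genes 7 had a log2 fold change above 0. *Aim2* and *Nlrp1b*, also named after their values were seen, were lower on every Atg5f/f;Vav array than on every control array. Their log2 fold changes of -0.62 (adjusted p = 0.0537 in limma) and -0.95 (0.171) did not pass the test. *Nlrp1b* was dim and above background on 2 of 3 Atg5f/f;Vav arrays.

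Cytokine genes of the interleukin-1 family were not called. Caspase-1 matures the products of *Il18* and *Il1b*. *Il18* had signals of 0.46, 0.72 and 0.62 in control and 0.37, 0.38 and -0.73 in Atg5f/f;Vav, a log2 fold change of -0.59 (adjusted p = 0.160), and *Il1a* and *Il1b* were not well above background on any array. *Gsdma*, another pore-forming gasdermin, was not well above background on any control array and was so on all 3 Atg5f/f;Vav arrays. It was at least 2.28-fold higher, the bright group's mean being set against the detection level of the control arrays, while normexp background correction, which adds an offset, gave a log2 fold change of 0.70. It entered the test only through the group in which it was high, so no p is given. The other 3 tested genes of the gasdermin list, *Gsdmc*, *Gsdme* and *Ninj1*, did not pass the test, and 5 of the 9 listed were above background on no array.

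On the death receptor side, *Tnfsf10*, the ligand TRAIL, was 1.44-fold higher (adjusted p = 0.0166) as the only 1 of 5 tested receptors and ligands to pass. Of 13 regulators of caspase-8 and the RIP kinases, 5 were called higher and 1 lower. All 3 subunits of LUBAC, the ligase complex that attaches linear ubiquitin chains to RIPK1 complexes, were among them, with *Rnf31* 1.59-fold (adjusted p = 0.0189), *Rbck1* 1.53-fold (adjusted p = 0.0284) and *Sharpin* 1.28-fold higher (adjusted p = 0.0386). The call of *Rnf31* held under each scaling, but those of *Rbck1* and *Sharpin* were lost with quantile normalization (adjusted p = 0.136 and 0.786) and with the other 75th percentile (0.0569 and 0.213), and the log2 fold change of *Sharpin* fell from 0.36 to 0.04 with the former. The adaptors *Traf2* and *Tradd* rose 1.48-fold (adjusted p = 0.0207) and 1.35-fold (adjusted p = 0.0254), and lost their calls with quantile normalization (0.0817 and 0.0997), as *Tradd* did with the other 75th percentile (0.0838). *Birc3*, the ubiquitin ligase cIAP2, fell by 0.48 on the log2 scale (adjusted p = 0.0289), a call lost with quantile normalization (0.0942) and with the replicate block (0.0561). *Sharpin*, *Tradd* and *Birc3* were named after their values were seen. *Fadd*, the adaptor that recruits caspase-8, had a log2 fold change of 0.37 (adjusted p = 0.0542), and *Cflar*, its inhibitor, one of -0.21 (adjusted p = 0.229).

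The largest change among the necroptosis genes was that of *Zbp1*, a nucleic acid sensor that shares the RHIM motif with RIPK1 and RIPK3 and can activate RIPK3. Its signal was -2.15, -2.44 and -2.12 in control and 1.24, 1.65 and 3.02 in Atg5f/f;Vav. Every Atg5f/f;Vav array was far above every control array, an 18.4-fold difference (log2 fold change 4.20, SE 0.43, adjusted p = 0.00701 in limma). The other genes of this list, *Ticam1*, *Tlr3* and *Tlr4*, did not pass the test. In the apoptosome list 3 of 5 genes rose: *Cycs*, cytochrome c, 2.22-fold (adjusted p = 0.0145), *Htra2*, a mitochondrial protease, 1.98-fold (adjusted p = 0.0243) and *Diablo*, an antagonist of the IAP proteins, 1.37-fold (adjusted p = 0.0322). With quantile normalization *Htra2* and *Diablo* lost their calls (adjusted p = 0.0540 and 0.0766), as *Diablo* did with the other 75th percentile (0.0913). Their partners *Apaf1* and *Xiap* had log2 fold changes of 0.27 (adjusted p = 0.221) and -0.32 (adjusted p = 0.0836).

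Interferon-induced genes served as a comparison, since several of the 8 genes and *Zbp1* are known interferon targets. All 16 were called higher, with a median log2 fold change of 2.23. This count and median include *Cxcl9*, which passed the background filter only through the group in which it was high. *Iigp1* and *Cxcl10* were 27.0-fold (adjusted p = 0.00260) and 21.4-fold higher (adjusted p = 0.00334), and *Cxcl9*, not well above background on any control array, was at least 2.45-fold higher; it entered the test only through the Atg5f/f;Vav arrays, so no p is given for it. The median log2 signal of the list was 1.08, 0.98 and 1.05 in control and 3.70, 3.92 and 4.54 in Atg5f/f;Vav. It was highest on the third Atg5f/f;Vav array, on which *Casp4* was the lowest of its group and *Mlkl* the highest. The part of interferon-induced transcription in the changes of the 8 genes was not tested.

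**Figure D3:**
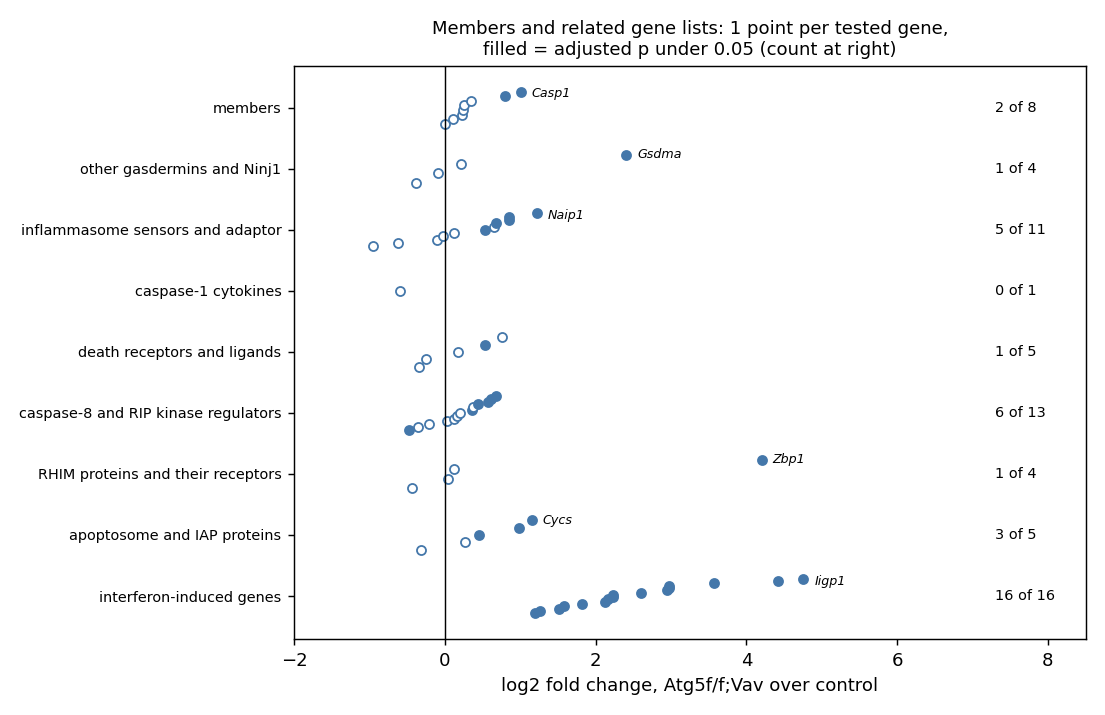
Log2 fold change of Atg5f/f;Vav over control (x axis) for each tested gene of the 8 members and of 8 related lists (rows), 1 point per gene, filled where the adjusted p in limma was under 0.05 and counted at the right. The interferon-induced genes are all filled and right of 0, whereas 2 of the 8 members are filled. Members and lists were chosen with earlier results of these data known.

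Sequence before the transcription start was examined for interferon-type elements, because the signal of interferon-induced genes differed so widely. RefSeq windows of 300 bases (250 before the start and 50 after, build GRCm38.p6) existed for 7 of the 8 genes, 9 windows in all. They were searched on both strands for the interferon-stimulated response element GAAANNGAAA, its form with a shorter spacer, GAAANGAAA, and the gamma-activated site TTCNNNGAA. The first was found in 3.44%, the second in 3.17% and the third in 8.30% of all 32851 windows. Among the 9 windows each was found in 1: the shorter form in *Casp8*, 109 bases before the start, and the other two in 1 of the 2 *Ripk1* windows. That *Ripk1* window held TTCNNNGAA at 108 and at 11 bases before the start, the latter overlapping a GAAANNGAAA that began 5 bases before the start. No window of *Casp1* or *Mlkl* held any of these letters, which says nothing about more distant sites. The windows are shown for these 4 genes from 250 bases before the start to 10 bases after it, with the matches in capitals.
Casp8, chr1:58802252-58802511, plus strand: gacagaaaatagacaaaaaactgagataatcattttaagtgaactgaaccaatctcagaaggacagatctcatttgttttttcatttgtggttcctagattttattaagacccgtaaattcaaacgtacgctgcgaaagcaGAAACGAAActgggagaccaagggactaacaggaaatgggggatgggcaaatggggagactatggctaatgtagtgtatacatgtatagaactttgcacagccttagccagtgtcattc
Ripk1, chr13:34002624-34002883, plus strand: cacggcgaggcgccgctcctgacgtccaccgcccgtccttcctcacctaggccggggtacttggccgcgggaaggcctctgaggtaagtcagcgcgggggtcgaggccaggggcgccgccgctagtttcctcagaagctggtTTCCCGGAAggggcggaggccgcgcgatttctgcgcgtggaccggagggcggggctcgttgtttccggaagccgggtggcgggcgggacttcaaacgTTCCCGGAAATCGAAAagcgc
Casp1, chr9:5298267-5298526, plus strand: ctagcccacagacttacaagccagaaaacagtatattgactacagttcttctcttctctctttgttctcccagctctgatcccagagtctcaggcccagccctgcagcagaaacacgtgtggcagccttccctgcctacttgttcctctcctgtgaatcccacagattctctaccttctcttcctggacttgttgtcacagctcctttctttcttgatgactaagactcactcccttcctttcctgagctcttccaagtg
Mlkl, chr8:111338196-111338455, minus strand: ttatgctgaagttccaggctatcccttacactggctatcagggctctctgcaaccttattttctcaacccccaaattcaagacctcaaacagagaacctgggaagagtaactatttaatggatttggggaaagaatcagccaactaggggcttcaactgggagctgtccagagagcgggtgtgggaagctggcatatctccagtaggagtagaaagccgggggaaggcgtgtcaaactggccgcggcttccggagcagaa

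Markers of other cells that a sort can contain moved between the groups. Of 11 neutrophil markers 8 were called lower and 1 higher, with a summed linear signal of 80.3 to 168 on the control arrays and 38.8 to 68.6 on the Atg5f/f;Vav arrays. Erythroid markers (10 genes, 5 called higher and 4 lower) did not move together. *Gata1*, *Klf1*, *Epor*, *Tfrc* and *Car1*, expressed early in the erythroid lineage, were 4.23-fold to 13.9-fold higher in Atg5f/f;Vav, whereas *Alas2*, *Slc4a1*, *Hbb-b1* and *Hba-a1*, which accompany haemoglobin synthesis, were 0.21 to 0.27 times the control. Their summed linear signal, carried mostly by *Hba-a1*, was 224 to 507 in control and 85.1 to 144 in Atg5f/f;Vav. Of 12 macrophage and monocyte markers 8 were tested, 2 of them were called higher and none lower, and *Mertk* was above background on no array. The 2 were *Cx3cr1* (3.05-fold) and *Ccr2* (1.96-fold), and 6 of the 8 had a log2 fold change above 0. The summed linear signal of the list, carried mostly by *Itgam*, was 31.4 to 42.7 in control and 23.8 to 32.2 in Atg5f/f;Vav. *Itgam* had a log2 fold change of -0.62 (adjusted p = 0.0618 in limma). The median log2 signal of the tested markers was -3.21 to -2.38 in control and -1.65 to -1.38 in Atg5f/f;Vav. Stromal markers summed to 40.7 and 30.6 on control replicates 2 and 3, but to 6.86 to 10.3 on the other 4 arrays, and 3 of the 6 tested were called lower. *Col1a1*, among these 3, passed the background filter only through the control arrays. B cell markers had 1 of 8 called higher, with sums of 9.26 to 12.4 in control and 10.7 to 17.9 in Atg5f/f;Vav, and T and NK cell markers had none of 5 called, with sums of 2.80 to 3.40 and 2.66 to 3.03. The part of these cells in the rise of *Casp1* and *Mlkl* was not tested. Without control replicates 2 and 3, a choice made after seeing the data, *Casp1* and *Mlkl* still had log2 fold changes of 0.81 each, but with 1 control array left, assumed to vary like the others, neither passed the test (adjusted p = 0.201 and 0.198 in limma).

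The genes whose signal followed each of the 8 most closely over the 6 arrays were found among 18381 genes, by Pearson's r; with so few arrays high values are common, and no p is given. For *Casp1* they were *Zmat5* and *Nsmce1* (r = 0.998 and 0.997), for *Casp4* *5430411C19Rik* and *Fopnl* (0.992 and 0.982), and for *Gsdmd* *Runx3* and *Cuedc2* (0.999 and 0.998). For *Casp8* they were *Jrk* and *Bhlhb9* (0.998 and 0.989), for *Ripk1* *Pced1a* was among them (0.992), for *Ripk3* *Atg101* and *Gatb* (0.997 for both) and for *Mlkl* *Tardbp* and *Fam122b* (0.9995 for both). *Casp9* had *Gabarapl1* and *Usp2* (0.977 and 0.966).

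**Figure D4:**
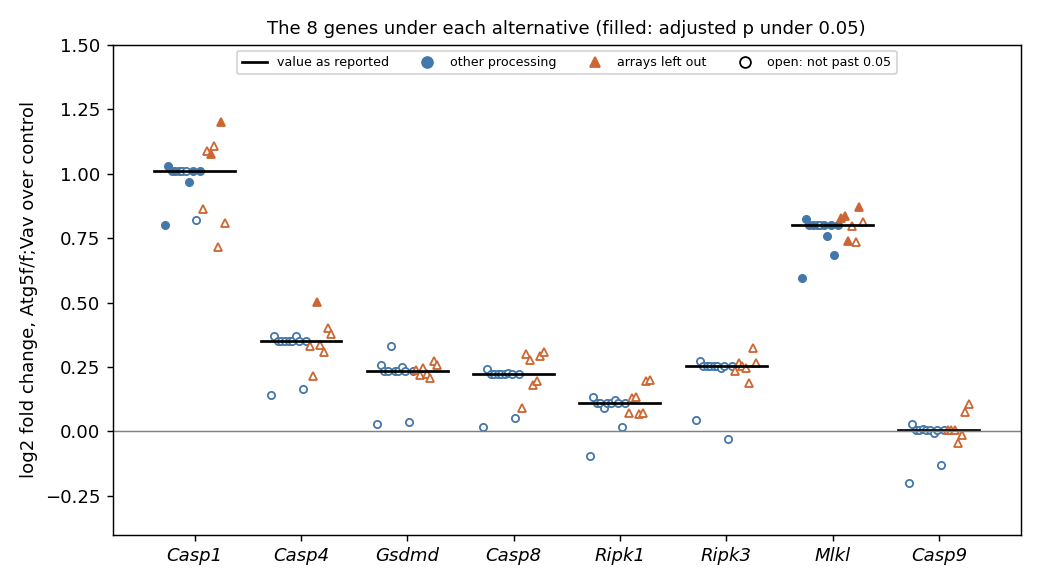
Log2 fold change of Atg5f/f;Vav over control (y axis) for each of the 8 genes as reported (black line), under other processing (circles) and with arrays left out (triangles), filled where the adjusted p was under 0.05. Casp1 and Mlkl stay above 0.59 throughout, while each of the other 6 genes falls to 0.143 or lower under at least 1 alternative, and Casp9, Ripk1 and Ripk3 cross 0.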

How the data were processed

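LSK cells were sorted from bone marrow of 3 control and 3 Atg5f/f;Vav samples, and total RNA was labelled with Cy3 and hybridised to 1 slide of 1-colour Agilent 60-mer arrays, scanned in 1 scan. The authors deposited the scanner output of each array, read with Agilent Feature Extraction 12.0.3.1 per the submitters' processing notes, whose processed intensity per spot is corrected for background. They also deposited a table of normalised signal, which equals the intensity divided by the 75th percentile of its array; it was used as an alternative only. Arrays have no read depth, and precision is limited by how many there were.

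The log2 of each processed intensity was taken relative to the array's 75th percentile over 59305 non-control spots. On each array 64 to 81 spots flagged as outliers were dropped, spots of a probe were averaged, and probes well above background on at least 3 arrays were kept. Groups were compared by two-sided moderated tests (R 4.3.3, limma 3.58.1), p-values were adjusted by the Benjamini-Hochberg method across the 32074 probes, with a threshold of 0.05, and the procedure was checked on simulated data. The study's methods name a t-test for differences between groups, without naming the array values, so it was run as an alternative. A gene was represented by its brightest tested probe. The members and the lists were chosen with earlier results of these data known. Genes named from the lists were the 3 called with the largest change in each, every gene of lists with under 4 measured genes, and for each member the 2 most alike by Pearson's r, besides genes marked as named later. Alternatives were normexp background correction, quantile normalization, another 75th percentile, the deposited signal, other filters, the methods' t-test, an intensity trend, the mean of a gene's probes, a replicate block and leaving out arrays. Some genes of the lists are not reported here.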

Additional observations from a re-analysis of the deposited data

How the results depend on the processing

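For the 8 genes, 79 of 88 values under other processing kept their direction and their side of the threshold, and 45 of 56 with arrays left out did. These counts include genes that were not called and stayed so, and they do not measure how steady the calls were. Over other processing and arrays left out together, *Casp1* was called in 10 of 18 alternatives and *Mlkl* in 14 of 18. The count called higher was 2 with the replicate block, and 1 with quantile normalization, 1 without a filter on dim probes, 0 with the methods' t-test (4 at an unadjusted p under 0.05), 0 without control replicates 2 and 3 (2 unadjusted), and 0 to 3 with single arrays left out; none was called lower in limma or by the t-test, also at an unadjusted p. *Casp9* turned to -0.20 with the 75th percentile over detected probes, -0.13 with quantile normalization and -0.0072 with normexp, and ranged from -0.0431 to 0.0748 with single arrays left out. *Ripk1* turned to -0.10 with that percentile and *Ripk3* to -0.0300 with quantile normalization. Over all probes the 11024 calls became 4538 without the filter, 0 with the methods' t-test (13541 unadjusted), 0 without control replicates 2 and 3 (7307 unadjusted), and 251 to 10304 with single arrays left out, 330 and 251 without control replicate 1 and 2. The 35 calls in the related lists became 22 without the filter, 0 with the methods' t-test (39 unadjusted), 0 without control replicates 2 and 3 (32 unadjusted), and 14 to 34 with single arrays left out, and none of these genes turned its direction. The causes of these differences were not tested. Same-numbered arrays deviated with r = -0.07, 0.19 and 0.11, so the numbers were not taken as pairs; with the replicate block 10173 probes and 34 genes of the lists were called. A block for slide or scan could not be fitted, since there was 1 of each. Signal over background limits the statements on *Gsdma*, *Cxcl9*, *Naip1*, *Nlrp1b*, *Nlrp3*, *Il1a* and *Il1b*.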

Other observations

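A further list of 10 caspase adaptors and substrates, chosen after the data were seen, had 8 tested genes, of which 2 were called higher and none lower, with a median log2 fold change of 0.26. *Parp1*, a nuclear substrate of executioner caspases, had log2 signals of 1.05, 0.97 and 1.41 in control and 1.98, 1.63 and 1.73 in Atg5f/f;Vav. It was 1.55-fold higher, with no overlap between the groups (adjusted p = 0.0268 in limma). *Pidd1*, part of the platform that activates caspase-2, was 1.38-fold higher (adjusted p = 0.0324 in limma), while *Cradd*, which joins the product of *Pidd1* to caspase-2, had a log2 fold change of -0.06 (adjusted p = 0.699). Neither the call of *Parp1* nor that of *Pidd1* was examined under other processing or with arrays left out. *Casp8ap2*, *Dffa*, *Dffb*, *Lmnb1* and *Rock1* did not pass the test, with log2 fold changes of -0.03 to 0.50. *Nol3*, an inhibitor of caspases, was above background on no array, and *Ripk2*, the RIP kinase of the NOD receptors, on 1 of 6.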
